A study of Mus musculus with 8 samples.

Results

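Sec16b encodes a scaffold protein of endoplasmic reticulum (ER) exit sites, the places where newly made secretory proteins leave the ER. It was the 1 gene, of a set of 10 genes for ER exit sites and the export of large cargo such as procollagen, that had a row in the deposited count tables as used here. The set was chosen by function and gene symbol, with the lower Sec16b level of knockout cells already known. The other 9 members, Sec16a, Mia2, Mia3, Sar1a, Sar1b, Sec23a, Sec24d, Sec31a and Tfg, were not analysed here. The tables shared 1933 gene rows, and every row with a symbol lies on chromosome 1 in GENCODE M21.

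The libraries came from hepatic stellate cells, which store vitamin A in the resting liver and make most scar collagen when activated. Stellate cells were isolated, per the labels, from male mice with steatohepatitis (MASH) after 20 weeks on a Western diet (20% protein, 21% fat and 50% carbohydrate) begun at 4 weeks of age. Livers were taken in week 24. AREL1HSC-KO mice (KO below, 4 libraries) lack, per the labels, the ubiquitin ligase AREL1 in stellate cells, and AREL1fl/fl mice (fl/fl below, 4 libraries) carry the floxed gene. Both groups received the diet. The driver of the deletion and the animal behind each library are details not given in the sources used here. The p-values therefore rest on the spread among these libraries, and that spread may be technical. Libraries were grouped by their titles, because the genotype field of 3 KO samples carries another digit in the gene name.

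Cargo leaves the ER in carriers built by the COPII coat. SAR1 GTPases recruit an inner layer of SEC23 and SEC24, which binds cargo, and an outer layer of SEC13 and SEC31. SEC16A and SEC16B organise the sites where this coat assembles, and SEC16B is the shorter paralog. TFG helps to cluster coated carriers there. Procollagen is too long for a standard carrier, and the receptors TANGO1 (Mia3) and cTAGE5 (Mia2) link it to the coat. The KLHL12-CUL3 ubiquitin ligase marks SEC31 and favours large carriers. In mouse intestine, SEC16B is known for its part in lipid absorption.

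RefSeq (GRCm38.p6) lists 2 start sites for Sec16b (ENSMUSG00000026589), and the gene count pools reads from both. Their promoter windows, each with 250 bases before and 50 bases after the start, are shown as the annotated regulatory sequence of the gene described here. Both are on the plus strand, the first at chr1:157506546-157506845 and the second at chr1:157525920-157526219. Capitals mark a match to a searched motif.
Sec16b start 1: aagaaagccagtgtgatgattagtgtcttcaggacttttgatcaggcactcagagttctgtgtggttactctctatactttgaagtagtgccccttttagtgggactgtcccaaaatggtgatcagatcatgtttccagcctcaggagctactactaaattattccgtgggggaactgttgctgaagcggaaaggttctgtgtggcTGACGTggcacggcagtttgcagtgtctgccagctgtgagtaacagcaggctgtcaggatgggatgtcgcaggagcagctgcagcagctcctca
Sec16b start 2: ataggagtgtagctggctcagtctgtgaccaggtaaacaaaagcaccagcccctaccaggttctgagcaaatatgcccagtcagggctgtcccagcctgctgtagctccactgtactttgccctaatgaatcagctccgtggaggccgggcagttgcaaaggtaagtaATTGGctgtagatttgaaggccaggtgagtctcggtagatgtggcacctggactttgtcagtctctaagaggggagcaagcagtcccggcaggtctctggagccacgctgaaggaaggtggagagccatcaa
The motifs searched on both strands were TGACGT, the core shared by cAMP response elements and the unfolded protein response element, the E-box CACGTG, the CCAAT box, the TATA box TATAAA, and the ER stress element, which joins a CCAAT box at a fixed spacing to CCACG and so overlaps the CCAAT search. The first window held TGACGT, beginning 44 bases before the start. The second held CCAAT on the minus strand, beginning 82 bases before the start. Of 32851 RefSeq windows of this length, 7.51% held TGACGT and 37.4% held CCAAT. Neither Sec16b window held one of the other motifs, which 7.15% (CACGTG), 13.6% (TATAAA) and 0.119% (ER stress element) of windows held. The windows held 5 CpG dinucleotides each, against a median of 7 over all windows. A match describes the letters only, and gene counts cannot tell which start was used.

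Sec16b was lower in all 4 KO libraries than in any fl/fl library. Its level was 9.24, 9.08, 8.69 and 9.08 CPM (reads scaled to the gene-assigned library total, with TMM factors) in KO replicates 1 to 4, against 10.60, 12.14, 11.91 and 11.22 CPM in fl/fl replicates 1 to 4. The groups did not overlap, and 1.36 CPM lay between the highest KO and the lowest fl/fl library. The level averaged 9.02 ± 0.235 CPM in KO and 11.5 ± 0.698 CPM in fl/fl (SD, n = 4 each). Sec16b thus stood 21.1% lower in KO, with a 95% interval of 29.4% to 11.9% lower (log2 fold change -0.34, SE 0.078, from the edgeR fit over all genes). These values led to the choice of the gene set, so they are given as a description with no test. In bulk samples, fewer cells that express a gene and less RNA per cell cannot be told apart.

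**Figure D1:**
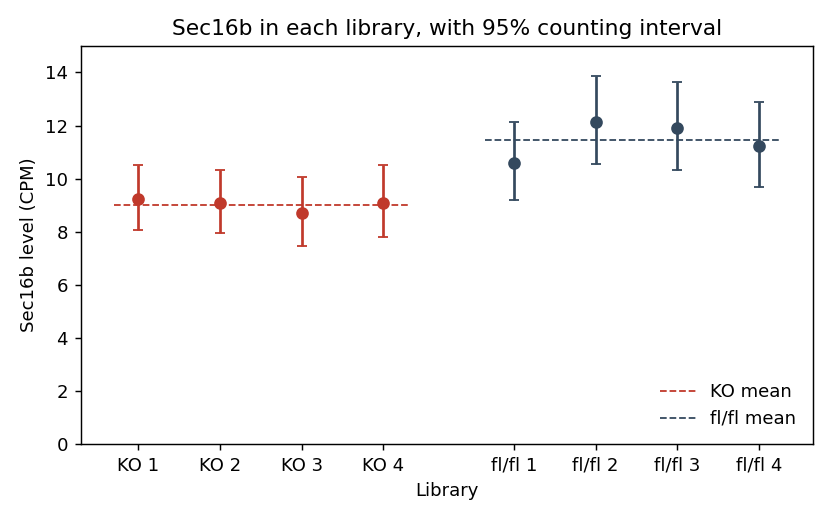
Sec16b level in CPM (vertical axis) in each library (horizontal axis), KO in red and fl/fl in dark blue. Points are single libraries, bars are 95% counting intervals and dashed lines are group means. The 4 KO libraries lie between 8.69 and 9.24 CPM and the 4 fl/fl libraries between 10.60 and 12.14 CPM, and the intervals of some KO and fl/fl libraries overlap, such as those of KO replicate 1 and fl/fl replicate 1.

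Sec16b was a gene of modest depth. Reads numbered 226, 233, 179 and 177 in KO replicates 1 to 4, and 206, 213, 206 and 196 in fl/fl replicates 1 to 4. The raw counts overlapped, and most KO libraries were sequenced more deeply than the fl/fl libraries. The exact (Clopper-Pearson) 95% counting interval ran from 8.08 to 10.5 CPM in the highest KO library, replicate 1, and from 9.20 to 12.2 CPM in the lowest fl/fl library, replicate 1. The counting intervals of those libraries thus overlapped. Summed over libraries, 815 KO reads and 821 fl/fl reads gave a KO level of 0.790 times the fl/fl level (exact 95% counting interval 0.716 to 0.871). Such intervals cover counting error only. The variance between KO libraries was 0.136 of the variance that counting alone gives, and that between fl/fl libraries 0.759, so neither group spread more than counting error.

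Reads of Sec16b fell on both strands alike, 810 on the forward and 826 on the reverse strand over the 8 libraries. Their sum equals the either-strand count of 1636, so no Sec16b read was set aside for lying on an exon of the other strand. The antisense gene Gm15486 overlaps the gene but shares 0 exon bases with it in GENCODE M21, and had 8 reads in KO and 3 in fl/fl. Over the exons of all its transcripts, 5410 bases, Sec16b stood at 1.67 CPM per kb in KO and 2.12 CPM per kb in fl/fl. The median gene tested stood at 5.25 CPM per kb, and 28.6% of 419 genes with a length stood lower than Sec16b.

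Over the 420 genes with enough reads to test, 158 (37.6%) differed between KO and fl/fl (edgeR quasi-likelihood test, Benjamini-Hochberg adjusted p under 0.05), 18.3% higher and 19.3% lower in KO. The groups did not overlap in 31.4% of the 420. Sec16b was among the 420 genes, and no test result is read for it, because its lower level was known when the set was chosen. With upper-quartile scaling 69.8% of the called genes were higher, and with library totals alone 60.6%, against 48.7% with TMM. TMM factors, taken from the 420 genes, separated the groups, at 1.00 to 1.02 in KO and 0.980 to 0.996 in fl/fl. With library totals alone the log2 fold change of Sec16b was -0.31, against -0.34 with TMM. In log2 fold change Sec16b ranked 31st from the lowest, and 7.14% of the genes tested lay lower. Its neighbours in that order were Lct at -0.36 and Rassf5 at -0.33, and the median of all genes was 0.0034.

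**Figure D2:**
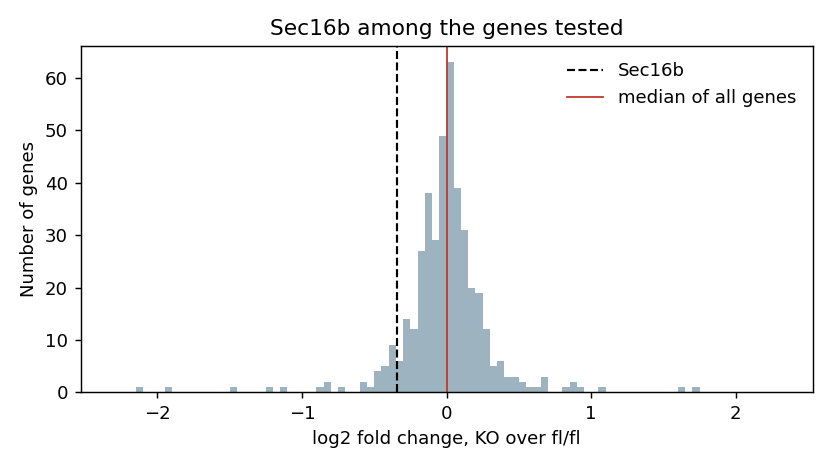
Number of genes (vertical axis) by log2 fold change of KO over fl/fl (horizontal axis) for the 420 genes tested. The dashed line marks Sec16b at -0.34 and the red line the median of all genes at 0.0034. Sec16b lies in the lower flank of the distribution, with 30 genes below it.

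The genes whose level followed Sec16b most closely over the 8 libraries all stood lower in KO. Among 320 other genes of at least 5 CPM, the highest Pearson correlations of log2 CPM were 0.962 for Itm2c, a membrane protein of the BRICHOS family, 0.959 for Plekhb2, an endosomal protein, 0.953 for Sema4c, a semaphorin, 0.950 for Dpt, the matrix protein dermatopontin, and 0.950 for Mr1, an antigen-presenting protein. The 8 libraries fall into the 2 genotypes, and a difference between the groups raises such values. After each group's mean was subtracted the correlations were 0.538, 0.638, 0.373, 0.353 and 0.469 in the same order. Itm2c averaged 79.3 ± 1.39 CPM in KO and 97.1 ± 2.79 CPM in fl/fl (SD, n = 4 each).

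The genes of the ligase that acts on the coat did not pass the test. Klhl12, the substrate adaptor that brings CUL3 to SEC31, stood at 52.5, 50.2, 51.0 and 52.7 CPM in KO replicates 1 to 4, against 48.8, 50.3, 46.7 and 52.3 CPM in fl/fl replicates 1 to 4. The groups overlapped. Its log2 fold change was 0.06 (95% interval -0.02 to 0.14, edgeR adjusted p = 0.259), and with upper-quartile scaling it passed (0.11, edgeR adjusted p = 0.0276, in a range of 0.0276 to 0.636 over the alternatives). Cul3, the cullin scaffold of that ligase and of many others, stood at 206.0, 221.8, 212.1 and 219.8 CPM in KO replicates 1 to 4, against 222.5, 233.2, 224.5 and 220.2 CPM in fl/fl replicates 1 to 4. KO replicate 2 lay above fl/fl replicate 4, so the groups overlapped. The log2 fold change of Cul3 was -0.07 (95% interval -0.12 to -0.01), just outside the threshold (edgeR adjusted p = 0.0546). Cul3 passed under 5 of 16 alternatives, in a range of 0.00339 to 0.694 over them all. Those 5 included the fits without fl/fl replicate 4 (edgeR adjusted p = 0.00339), without KO replicate 2 (0.0330) and with forward-strand counts (0.0315). Both intervals leave out a change as large as that of Sec16b. Whether Sec16b differed from them in its change was not tested.

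Among cargo receptors and fusion proteins of ER to Golgi transport, Cnih4 was the 1 gene of 26 in the rows, and it fell. CNIH4 is a cornichon protein that helps membrane receptors leave the ER. Its level was 108.4, 102.2, 110.8 and 106.3 CPM in KO replicates 1 to 4, against 114.2, 113.2, 119.5 and 116.2 CPM in fl/fl replicates 1 to 4. All KO libraries lay below all fl/fl libraries. Over all 420 genes, 19.3% were called lower and the groups did not overlap in 31.4%. Cnih4 averaged 106.9 ± 3.66 CPM in KO and 115.8 ± 2.78 CPM in fl/fl (SD, n = 4 each; log2 fold change -0.12, SE 0.030, edgeR adjusted p = 0.0035). The call was lost with upper-quartile scaling (edgeR adjusted p = 0.105) and with forward-strand counts (0.263), in a range of 0.00022 to 0.263. Per kb of exon, Cnih4 stood at 28.3 CPM in KO and 30.6 CPM in fl/fl, Cul3 at 44.1 and 46.2 CPM, and Klhl12 at 4.53 and 4.35 CPM. Sec16b thus had the lowest level per length of these 4 genes. None of 7 other genes of the coat and its recruitment and none of 13 COPI genes, which bring proteins back from the Golgi to the ER, were analysed here.

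Listed genes for the collagen cargo stood lower in KO, where 19.3% of all 420 genes were called lower. Of 13 listed collagen genes 3 were in the rows, Col3a1 and Col5a2 of banded fibrils and Col6a3 of microfibrils, and their lower levels in KO were known before the lists were drawn up. Col6a3 stood between 12.5 and 13.0 CPM in KO and between 16.8 and 22.9 CPM in fl/fl, and fell by 39.7% (edgeR adjusted p = 1.03e-07). Col4a4, a basement membrane collagen chain outside the list and named after its values were seen, stood at 0.436 CPM in KO and 0.568 CPM in fl/fl and did not pass (edgeR adjusted p = 0.470). Col5a2 fell by 12.4% and Col3a1 fell by 9.52% (edgeR adjusted p = 2.56e-08 and 2.04e-05). Qsox1, a secretory pathway enzyme that makes disulfide bonds, ranged from 43.2 to 44.2 CPM in KO and from 53.6 to 60.0 CPM in fl/fl (log2 fold change -0.38, edgeR adjusted p = 1.77e-08). The lower level of Qsox1 was also known before the lists were drawn up. The p-values of Qsox1 and the 3 listed collagens thus come from the data known at their listing, and are a description only. Over the 8 libraries 1441 strand-specific reads of Qsox1 were not in its either-strand count, and Gm37539 overlaps it, so its level is uncertain. Colgalt2, a collagen galactosyltransferase, had 1 read in KO and 2 in fl/fl. Relative to the fl/fl mean, Sec16b lay between Col6a3 and Col5a2, close to Qsox1.

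**Figure D3:**
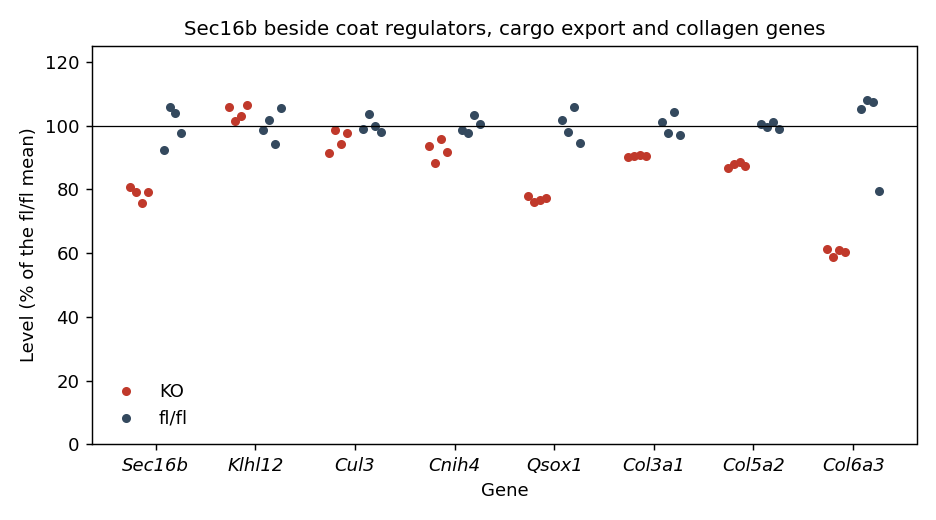
Level of each gene as a percentage of its fl/fl mean (vertical axis), by gene (horizontal axis). Each point is a library, KO in red to the left and fl/fl in dark blue to the right of each gene. The KO points of Sec16b lie apart from the fl/fl points, as do those of Cnih4, Qsox1 and the collagens, while Klhl12 and Cul3 overlap. The groups did not overlap in 31.4% of all 420 genes tested. The lower levels of Sec16b, Qsox1 and the collagens were known before these genes were listed.

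A wider set of 30 secretory pathway genes was picked by function from the rows. Of these, 5 act in the ER on collagen or on protein entry and exit, and they moved in both directions. Of the 5, 2 rose, 2 fell and 1 did not pass, where 18.3% of all 420 genes were called higher and 19.3% lower. Tmem131, a membrane protein that binds procollagen and aids its export, rose, with 182.2, 179.5, 185.5 and 185.2 CPM in KO replicates 1 to 4, against 174.5, 165.7, 168.5 and 168.2 CPM in fl/fl replicates 1 to 4 (log2 fold change 0.11, SE 0.026, edgeR adjusted p = 0.00124). Tram2, a translocon-associated protein linked to collagen I synthesis, rose, with 43.4, 39.2, 39.7 and 38.6 CPM in KO replicates 1 to 4, against 36.1, 35.9, 32.0 and 35.9 CPM in fl/fl replicates 1 to 4 (log2 fold change 0.20, SE 0.048, edgeR adjusted p = 0.00136). In both genes every KO library lay above every fl/fl library, and the groups did not overlap in 31.4% of all 420 genes. Suco, an ER protein needed for collagen production in mouse bone, fell, with 71.6, 76.8, 77.6 and 69.9 CPM in KO replicates 1 to 4, against 84.9, 84.1, 80.5 and 80.1 CPM in fl/fl replicates 1 to 4 (log2 fold change -0.16, SE 0.036, edgeR adjusted p = 0.00136). All KO libraries lay below all fl/fl libraries, and 114 reads were set aside for exons of the other strand, where the pseudogene Gm7496 overlaps. Tram1, the paralog of Tram2, fell to 103.6 ± 2.96 CPM in KO, against 113.4 ± 8.15 CPM in fl/fl (SD, n = 4 each; edgeR adjusted p = 0.0113). Its groups overlapped, and the call was lost without fl/fl replicate 2 (edgeR adjusted p = 0.0709), with upper-quartile scaling (0.132) and with library totals alone (0.0521), in a range of 6.79e-09 to 0.132. Lman2l, a lectin that carries glycoproteins out of the ER, averaged 46.7 ± 1.89 CPM in KO and 46.1 ± 1.53 CPM in fl/fl and did not pass.

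Of 13 genes of ER quality control and membrane protein handling, 4 rose, 2 fell and 7 did not pass, where 37.6% of all 420 genes were called (18.3% higher and 19.3% lower). Tmco1, an ER calcium channel, rose by 12.2%, with 82.0 to 85.6 CPM in KO and 71.5 to 79.6 CPM in fl/fl (edgeR adjusted p = 0.000432). Edem3, which trims mannose from misfolded glycoproteins, rose by 8.50% (edgeR adjusted p = 0.00611). Uggt1 and Tor1aip1 also rose, but lost their calls under 10 and 7 of 16 alternatives, and 6996 strand-specific reads of Tor1aip1 were not in its either-strand count. Yod1, a deubiquitinase of ER-associated degradation, fell to 17.6 ± 1.22 CPM in KO, against 21.0 ± 2.00 CPM in fl/fl (SD, n = 4 each; edgeR adjusted p = 0.00398), with overlapping groups. Pigc, an enzyme of GPI anchor synthesis, fell to 18.7 ± 0.783 CPM in KO, against 21.8 ± 1.87 CPM in fl/fl (edgeR adjusted p = 0.0069). The call of Pigc was lost without fl/fl replicate 3 and with forward-strand counts, in a range of 0.000379 to 0.172. Yod1 shares exon bases with Pfkfb2, so its level is uncertain without strand.

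Of 12 genes of the Golgi and membrane traffic, 5 rose, 1 fell and 6 did not pass, beside the same 18.3% higher and 19.3% lower over all genes. Rab3gap2, a subunit of the RAB18 exchange factor, rose by 9.62%, with 122.7 to 130.5 CPM in KO and 112.2 to 119.2 CPM in fl/fl (edgeR adjusted p = 0.000913). Blzf1, the golgin that helps to hold the Golgi stack together, rose by 9.74% (edgeR adjusted p = 0.0136), and lost its call with reverse-strand counts. Ap1s3, a subunit of the AP-1 adaptor, rose to 7.99 ± 0.280 CPM in KO, against 6.45 ± 0.426 CPM in fl/fl (SD, n = 4 each; edgeR adjusted p = 0.00758), and lost its call with forward-strand counts. Arfgef1 and Mgat4a also rose, but lost their calls under 3 and 8 of 16 alternatives. Mgat4a averaged only 4.46 CPM in KO and 3.45 CPM in fl/fl. Gorab, a scaffold for COPI at the Golgi, fell to 17.7 ± 1.59 CPM in KO, against 20.5 ± 1.53 CPM in fl/fl (edgeR adjusted p = 0.0113). Its groups overlapped, and the call was lost under 5 alternatives, those without KO replicate 1, without KO replicate 2 and without fl/fl replicate 1 among them, in a range of 9.93e-05 to 0.185. Either-strand counts of Rab3gap2 left out 2783 strand-specific reads and those of Blzf1 176, so both levels are uncertain.

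**Figure D4:**
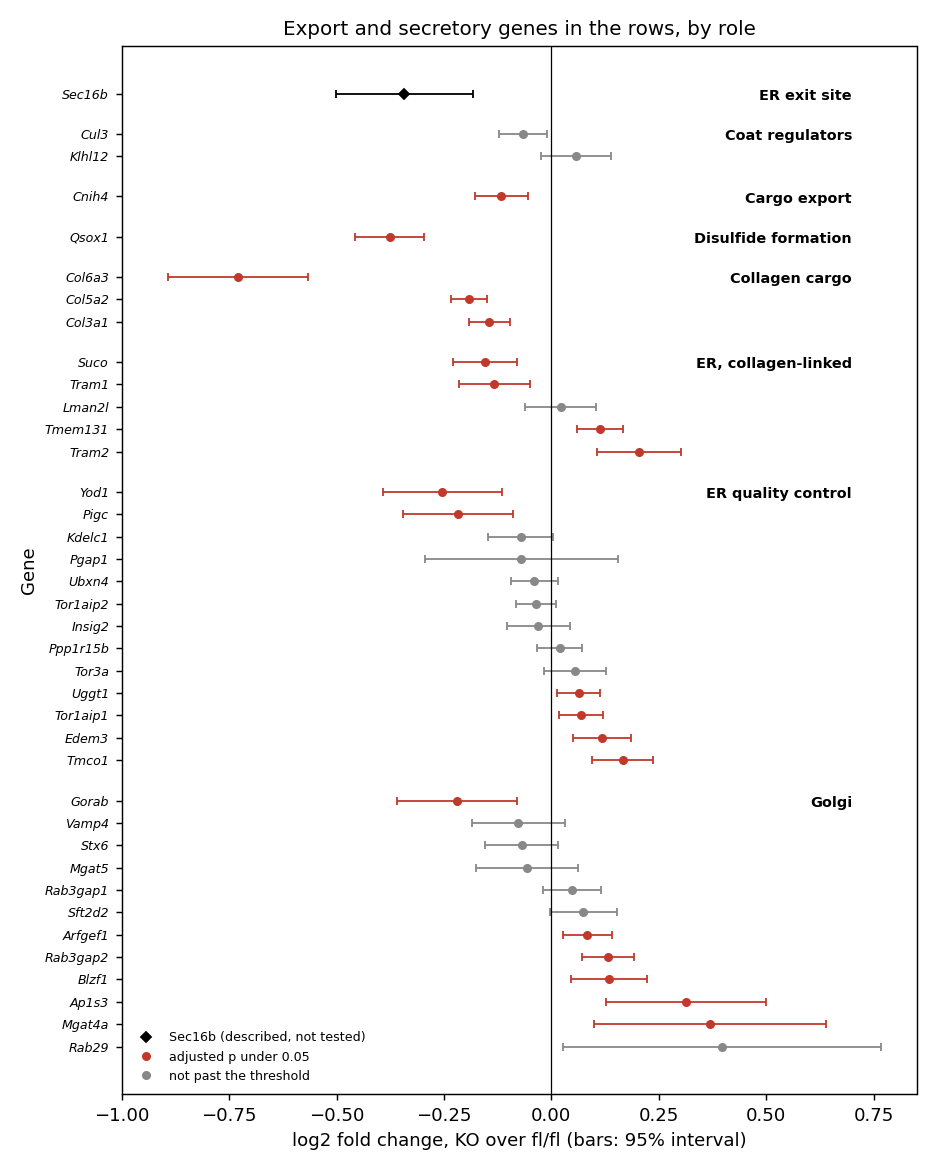
Log2 fold change of KO over fl/fl with its 95% interval (horizontal axis) for Sec16b and 37 other export and secretory genes, grouped by role (vertical axis). Red points passed the edgeR test, grey points did not, and the black diamond is Sec16b, which is described without a test. The lower levels of the 3 collagen genes and Qsox1 were known before they were listed, so their red colour is a description only. The 3 collagen genes shown, Qsox1 and Cnih4 lie below 0, while the ER and Golgi groups lie on both sides.

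Counted together, 11 of these 37 genes rose, 10 fell and 16 did not pass, where 18.3% of all 420 genes were called higher and 19.3% lower. Their median log2 fold change was -0.030, against 0.0034 over all 420 genes. With upper-quartile scaling the counts were 17 higher and 7 lower (70.8% higher, against 52.4% with TMM). Of the 7 genes kept from the pathway lists drawn up by function, 5 fell, where 19.3% of all genes did, and 2 did not pass, and the lower levels of the collagens and Qsox1 among the 5 were known beforehand. Of the 30 picked from the rows, 11 rose and 5 fell, beside 18.3% and 19.3% of all genes. The shares over all 420 genes were not matched for level, and only 320 of those genes besides Sec16b averaged at least 5 CPM.

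Gene-assigned reads numbered 19271004 to 25165289 in KO and 17619387 to 19663030 in fl/fl. Unmapped reads made up 1.44% to 1.58% of reads in KO and 1.04% to 1.19% in fl/fl. Reads outside annotated features made up 3.93% to 4.14% in KO and 4.30% to 4.34% in fl/fl. Both shares separated the groups, and their part in the lower Sec16b level was not tested. The labels name no batch, so a batch that follows the genotype cannot be told apart from it. The profile of fl/fl replicate 4 lay apart from those of fl/fl replicates 1 to 3 (chi-square per degree of freedom 3.37 to 3.47, against 1.39 to 1.86 among those), and without it the log2 fold change of Sec16b was -0.35. Neither the knocked-out gene Arel1 nor any of 12 stellate cell markers was in the rows, so the labelled genotype and cell type were not checked. Of the markers of other cell types, 1 of 8 for hepatocytes was in the rows, Serpinc1, at 0.286 to 0.662 CPM in KO and 0.343 to 0.627 CPM in fl/fl, and most of its strand-specific reads were set aside as overlapping. Of 6 for cholangiocytes, Pkhd1 had 0 reads in KO and 1 in fl/fl. Of 9 for leukocytes, Xcl1 had 0 reads in all libraries. Of 6 for mesothelium and portal fibroblasts, Cd34 stood at 84.6 ± 1.83 CPM in KO and 81.6 ± 3.14 CPM in fl/fl (SD, n = 4 each) and did not pass. Its level is uncertain, because 3523 of its strand-specific reads were not in its either-strand count of 13485. None of the 8 markers listed for macrophages and none of the 8 listed for endothelium was in the rows. The part of other cell types in the Sec16b level was not tested.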

How the data were processed

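For each of 8 libraries the authors deposited raw read counts per gene, laid out as STAR writes them. STAR 2.7.10a, DESeq2 1.38.0 and fastp are named in the submitters' processing notes, beside GRCm38 and GRCm39, with the annotation release not given in the sources used here. Symbols came from GENCODE M21 (1830 of 1933 shared rows). The rows hold part of each library, so library totals were derived from the summary counts above the gene rows, as reads over features of 1 strand less ambiguous reads, a lower limit. The upper limit lay 2.51% to 2.65% higher. Either-strand counts were used, because reverse and forward reads were nearly equal (ratio 0.985 to 1.02).

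The comparison of the counts used edgeR 4.0.16 in R 4.3.3 (filterByExpr, TMM, robust quasi-likelihood F test of KO against fl/fl without a block, adjusted over the 420 genes kept). CPM levels were computed from those counts, and each SE from the F statistic. The fit was also run on simulated counts with the same spread for every gene and no library that lay apart. That run therefore does not cover libraries such as fl/fl replicate 4. No pair of libraries within a group agreed within sampling noise (chi-square test).

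The members and lists were chosen with earlier results of these data known, and the 30 added genes once the rows were known. From lists with over 8 tested genes, the 4 of lowest p are described, and from shorter lists all. Some further genes of the longer lists are named where a call was lost or a library singled out. Alternatives were DESeq2 1.42.0, other scalings, no filter, single-strand counts, a replicate block, an adjusted p under 0.01, leaving out each library and, chosen after seeing the data, library totals as the sum of the rows.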

Additional observations from a re-analysis of the deposited data

Results flagged for a closer look

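In 78 groups of 4 libraries, each gene of the lists in KO or in fl/fl, the highest or lowest library was singled out where more than 0.829 of the group's range separated it from the next. About 1 in 20 groups meets this by chance, 3.9 of 78, and 5 did. Neither group of Sec16b was among them. In fl/fl replicate 4, Col6a3 stood at 16.8 CPM, against 22.3 to 22.9 CPM in the other fl/fl libraries. In fl/fl replicate 3, Tram2 stood at 32.0 CPM, against 35.9 to 36.1 CPM. In fl/fl replicate 1, Cd34 stood at 86.2 CPM, against 79.4 to 80.5 CPM. In KO replicate 3, Tor1aip2, a torsin activator, stood at 320.4 CPM, against 329.2 to 330.0 CPM in the other KO libraries, and Sft2d2, a Golgi membrane protein, at 54.2 CPM, against 56.4 to 56.8 CPM.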

How the results depend on the processing

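Sec16b was lower in KO under all 16 alternatives, with log2 fold changes of -0.38 to -0.29. Its value was -0.33 with forward-strand and -0.37 with reverse-strand counts. The gene set was chosen with this lower level known, and the alternatives reuse the same reads. Their shared sign is thus a description only. The count of genes that differed was 108 to 191 under 17 alternatives, against 158, and that of the 37 secretory genes 16 to 24 under 16 alternatives (most of them chosen for this count after seeing the data), against 21. For these 37 genes, 533 of 592 gene and alternative pairs kept their side of the threshold, 42 lost the call, 17 gained it and 0 called values changed sign. Every alternative left the call as it was in 20 of the genes. Same-numbered libraries showed little shared deviation (correlations of -0.16, 0.13, -0.11 and -0.04). Such values include counting noise and cannot tell whether the numbers mark a shared preparation. With the replicate block Sec16b stood at -0.34, 150 genes differed, and Cul3 gained its call (edgeR adjusted p = 0.0481) while Uggt1 lost its own (0.0596). The cause of lost or gained calls was not tested. Depth limits Sec16b to 177 to 233 reads per library.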
